A study of Mus musculus with 3 samples.

Results

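Cxcl12, Kitl, Angpt1, Vcam1, Il7 and Spp1 encode secreted or surface proteins through which marrow stroma acts on blood stem and progenitor cells. They were examined here at the level of single probesets, the short stretches of a transcript, usually within 1 exon, that an Affymetrix exon array measures separately. Members were the probesets whose platform annotation names exactly 1 of these 6 genes, by its current or a former symbol. This gave 93 probesets of 318760 with a single gene symbol and of 1256831 on the array. Cxcl12 had 10, Kitl 15, Angpt1 17, Vcam1 18, Il7 20 and Spp1 13, all under the current symbol, and no probeset with several symbols named a member.

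The study hybridised 3 arrays with RNA of freshly isolated bone marrow cells from C57BL/6 mice. All cells were GFP-positive by flow sorting and carried GFP under the control of the nestin promoter. No treatment, age or second group is given. Separate or pooled mice are not told apart in the labels, and p-values here therefore cover the variation among these samples alone, which could be technical. Array numbers are those of the sample titles.

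The marrow niche is the stromal and vascular surrounding in which blood stem cells are held and kept quiescent. CXCL12 is a chemokine that draws in and retains cells bearing CXCR4. KIT ligand (stem cell factor) exists in membrane-bound and soluble forms and sustains cells that carry the receptor KIT. Angiopoietin-1 activates TIE2, VCAM-1 binds integrins of blood cells, IL-7 is needed by B cell precursors, and osteopontin, the product of Spp1, is a matrix protein that binds integrins and CD44. Reticular stromal cells around marrow vessels are known for high levels of Cxcl12 and Kitl.

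Values are log2 expression after RMA (robust multi-array average), so 1 unit is a doubling of signal. The arrays had no depth in the sense of reads, and their number limits the precision.  Background was taken from olfactory, vomeronasal and bitter taste receptor genes, and the threshold of an array was their 95th percentile. For single probesets (3983 of such genes) it was 7.0, 7.22 and 7.0 on the arrays in order. For gene medians (355 such genes) it was 5.40, 5.66 and 5.64. Of 8 perivascular stroma markers 8 passed the background test, beside 50.6% of all genes. Lepr was at 11.39, 11.50 and 11.27, Pdgfra at 9.04, 9.77 and 9.21 and Pdgfrb at 10.02, 10.04 and 9.44. All 8 measured osteoblast and all 5 measured neutrophil markers also passed, so a pass does not single out perivascular stroma. Nes itself, whose promoter drives the reporter, stood near the threshold with 5.97, 5.21 and 5.56 and was not called (limma adjusted p = 0.757).

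All 6 niche genes lay above background, and most of their single probesets did so too. The 6 gene medians passed limma's one-sided test against the threshold, with adjusted p from 2.67e-07 for Cxcl12 to 2.93e-06 for Il7, where 50.6% of 18865 genes with at least 4 probesets passed. Against genes of hepatocytes, photoreceptors and spermatids 6 of 6 passed as well, beside 16.2% of all genes. At probeset level 76 of 93 passed (limma, one-sided, Benjamini-Hochberg adjusted p below 0.05), beside 20.5% of all named probesets. The share of a gene's probesets that passed was 100% for Cxcl12, 94.4% for Vcam1, 88.2% for Angpt1, 84.6% for Spp1, 80.0% for Kitl and 55.0% for Il7. The median share over all genes with at least 4 probesets was 11.5%. Of the 17 probesets not called, 5 lay above the threshold on every array, 5 on 1 or 2 arrays and 7 on none.

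**Figure D1:**
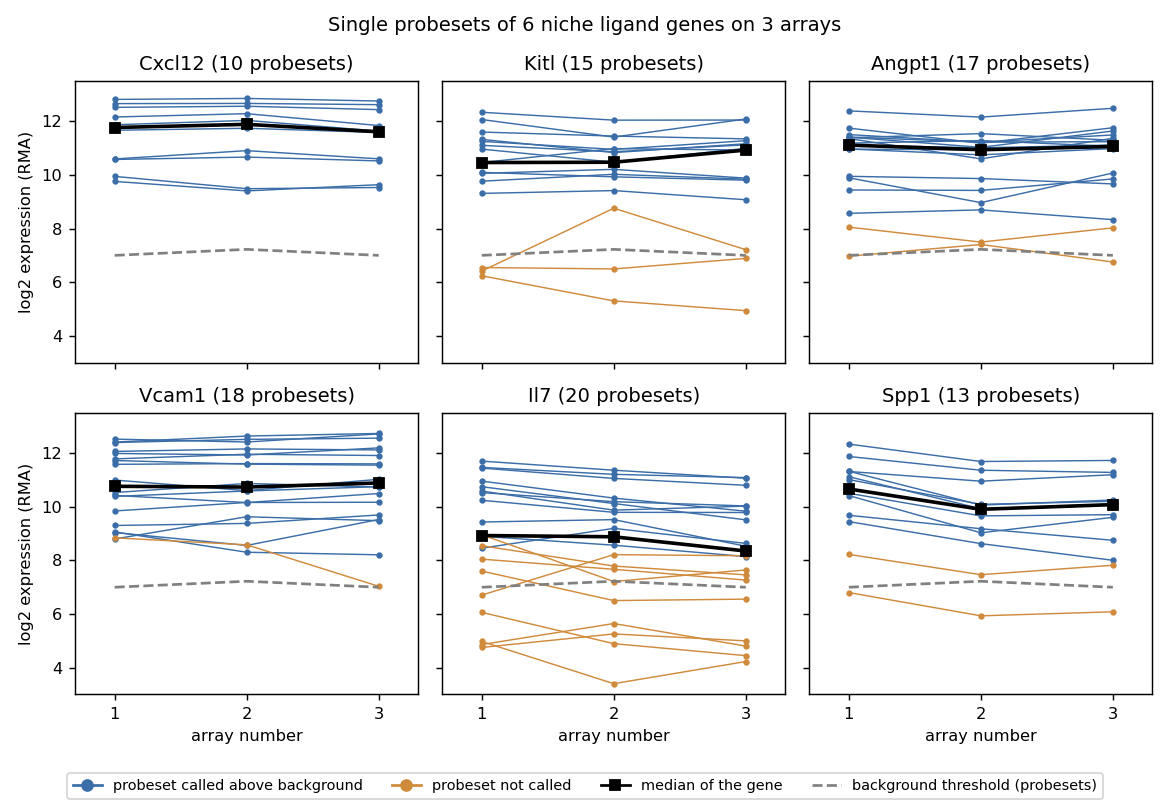
Log2 expression (y axis) of every single probeset of the 6 genes on arrays 1 to 3 (x axis), with called probesets in blue, others in orange, the gene median as black squares and the probeset background threshold dashed. All 10 Cxcl12 probesets run nearly level above 9.40, whereas Il7 spreads from 3.40 to 11.70.

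Start regions of Cxcl12 and Spp1, the members whose probesets were the most level and the most shifted between arrays, are shown first, from the RefSeq windows of build GRCm38.p6, which cover Cxcl12, Kitl and Spp1 among the 6. Each is the 250 bases before the annotated start, 5′ to 3′ on the plus strand, at chr6:117168285-117168534 and chr5:104434861-104435110. Capitals mark GGGCGG (a GC box) or AACCACA (letters bound by Runx factors) on either strand, and matches may overlap.
Cxcl12: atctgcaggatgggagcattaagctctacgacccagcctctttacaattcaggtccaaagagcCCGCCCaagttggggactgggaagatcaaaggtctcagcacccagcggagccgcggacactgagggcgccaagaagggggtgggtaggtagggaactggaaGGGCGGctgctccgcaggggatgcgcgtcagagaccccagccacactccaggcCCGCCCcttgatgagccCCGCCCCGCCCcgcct
Spp1: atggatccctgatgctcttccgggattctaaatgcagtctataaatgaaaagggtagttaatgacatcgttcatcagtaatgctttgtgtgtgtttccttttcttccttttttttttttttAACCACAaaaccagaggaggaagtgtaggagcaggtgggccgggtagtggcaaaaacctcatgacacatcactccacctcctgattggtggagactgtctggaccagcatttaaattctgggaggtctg

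The Cxcl12 window held GGGCGG 5 times and AACCACA 0 times, and the Spp1 window AACCACA 1 time and GGGCGG 0 times. Over all 32851 windows of this length 32.7% held the first and 4.4% the second. The letters were chosen with both sequences in view. A match describes the sequence only, and no value of these arrays measured the use of a start region.

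Cxcl12, the chemokine gene, had the lowest median SD over arrays and the highest r between arrays of the 6. Its median was 11.77, 11.89 and 11.61 on the 3 arrays, and its lowest single value on any array was 9.40. The brightest probeset, 4560635, read 12.81, 12.85 and 12.75 on the arrays in order, and the dimmest, 4623283, read 9.76, 9.40 and 9.63. The first was the brightest on every array, while on array 3 5218882, at 9.53, was dimmer than 4623283.

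Some probesets of Cxcl12 departed from its median in both directions. In limma's two-sided test of each probeset against the median of its gene on the same array, 4 were lower (adjusted p from 0.00318 to 0.0127) and 3 were higher (0.0126 to 0.0311). The higher calls numbered 0, 1 and 0 without array 1, 2 or 3, and the lower ones 3, 4 and 2. Over all probesets tested 24.9% were lower and 25.5% higher, so a departure from the gene median is common on this platform. The same shares are the comparison for the counts of the other members below. Of the 4 lower ones, 4694600 had a difference of -1.05 and 5446051 one of -1.17 from the median, while 5218882 and 4623283 had -2.1 and -2.16. All 4 remained above background, with adjusted p of at most 0.00158. Probe affinity and the use of an exon were not separated by these data.

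Between arrays, the SD of a single Cxcl12 probeset ran from 0.02 to 0.25, with a median of 0.13, compared with 0.31 over all called probesets. The largest, 0.25, belonged to 5218882, with 9.94, 9.49 and 9.53. Pearson's r over the 10 probesets was 0.988, 0.994 and 0.990 for the pairs 1-2, 1-3 and 2-3, and Spearman's rho was 1, 0.988 and 0.988. As a description, 98.8% of the sum of squares lay between probesets, 0.342% between arrays and 0.870% in the remainder. Over all genes with at least 4 probesets the median share between probesets was 90.6%. The median of r, as a mean over array pairs, was 0.889 there, so high values are common.

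Kitl, the gene of stem cell factor, had 12 bright probesets and 3 near or below background. Its median was 10.46, 10.47 and 10.93 on arrays 1 to 3. The 12 called probesets had means from 9.27 to 12.14, the highest being 4372590 with 12.34, 12.04 and 12.05. The lowest of them, 5506259, read 9.31, 9.42 and 9.07 and lay below the gene median (adjusted p = 0.0139, limma).

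The 3 that did not pass were the dimmest of the gene on every array. Probeset 4323091 read 6.24, 5.30 and 4.94 and differed by -5.13 from the gene median (adjusted p = 0.00208, limma). Probeset 4723851 read 6.55, 6.49 and 6.89, thus lower than the threshold on each array. Probeset 5477373 was the least reproducible of all 93, with 6.41, 8.76 and 7.21 in array order, an SD of 1.19. It was above the threshold on arrays 2 and 3 only, and its mean margin of 0.39 did not pass (adjusted p = 0.707, limma). In limma's test against the gene median 4 Kitl probesets were lower and 3 higher, and without array 1 or without array 3 these counts were 2 and 1. Without the 3 uncalled probesets, the SD over arrays of a Kitl probeset was between 0.13 and 0.38.

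The higher median of Kitl on array 3 was not shared by its probesets. Among the 15, arrays 1, 2 and 3 were the highest for 5 each. The median rested on 4962001 on arrays 1 and 3, which read 10.46 and 10.93 there, and on 5091217 on array 2, which read 10.47. Probeset by probeset, array 1 minus array 3 had a median of -0.02, with 7 of 15 above 0. When probesets were averaged rather than represented by their median, the range of Kitl over the arrays fell from 0.53 to 0.02 on the log2 scale, after removal of each array's shift over all genes.

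Angpt1, the gene of angiopoietin-1, had medians of 11.11, 10.94 and 11.06 on arrays 1, 2 and 3. Of its 17 probesets 6 were called lower and 1 higher than the gene median. With the mean as the centre 4 were lower and 9 higher, and without array 3 the median gave 4 lower and 0 higher. The brightest, 5044067, read 12.39, 12.16 and 12.48 and was the 1 called higher (adjusted p = 0.00731, limma), a call lost without array 3. The 3 furthest below the median were 4785965, 4585432 and 5475569, with differences of -4.0, -3.18 and -2.51.

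Of these, 5475569 still passed the background test, with 8.57, 8.70 and 8.33 (adjusted p = 0.00475, limma). Probeset 4585432 lay above the threshold on every array, with 8.05, 7.49 and 8.02, yet was not called (adjusted p = 0.0724, limma). Probeset 4785965, with 6.97, 7.41 and 6.75, was above it on array 2 only. These were the only 2 of the 17 without a call.

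Array 2 was the lowest for 12 of 17 Angpt1 probesets, although by small amounts. Array 2 minus array 3 had a median of -0.23 over the probesets, with extremes of -1.10 for 4664646 and 0.65 for 4785965. The first read 9.89, 8.97 and 10.07 and had the largest SD of the gene, 0.59. The second-largest SD, 0.44, was that of 4605915, with 11.35, 10.60 and 11.36. The remaining 15 had SDs of at most 0.33, and the gene median itself moved by 0.17 over the arrays.

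Vcam1, the gene of an adhesion molecule that anchors integrin-bearing blood cells, had medians of 10.76, 10.74 and 10.89. All 18 probesets exceeded the threshold on every array and 17 were called. The highest mean belonged to 5175517, with 12.41, 12.64 and 12.73, and the most stable value of all 93 to 4902444, with 11.58, 11.61 and 11.60 (SD 0.01). Here 8 probesets were called higher and 6 lower than the gene median, and the other 4 were not called. Higher calls numbered 5, 5 and 4 without array 1, 2 or 3, and lower ones 5, 5 and 4. An interquartile range of 2.5, 2.19 and 2.25 on the arrays in order described the width of the gene's probesets.

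The exception was 5130024, which read 8.84, 8.58 and 7.03 and was not called (adjusted p = 0.110, limma). Its fall on array 3 was not followed by the gene, since 10 of 18 Vcam1 probesets were highest on array 3. The other probesets furthest below the median were 4419062, with 9.06, 8.30 and 8.21, and 4758171, with 9.04, 8.56 and 9.53. Both passed the background test (adjusted p = 0.0153 and 0.00737, limma). Pearson's r over the probesets rose from 0.954 to 0.971 as a mean over array pairs when only the 17 called ones were used.

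Il7, the lymphoid cytokine gene, had the widest spread of probesets among the 6. Its median was 8.93, 8.88 and 8.35 on arrays 1, 2 and 3, but single values ran from 3.40 to 11.70. The SD over its 20 probesets was 2.30, 2.30 and 2.21 on the arrays, compared with a median of 1.71 over all genes and a range from 1.20 to 1.98 for the other 5 members, as means over arrays. In limma's test against the gene median 8 probesets were higher and 7 were lower, and 5 were not called. Without array 3 the counts were 5 and 4.

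The brightest Il7 probeset, 5290358, read 11.70, 11.36 and 11.06, and 8 of the gene's probesets had means of 9.94 or more. At the other end, 4466480 read 4.98, 3.40 and 4.23, 4786470 read 4.75, 5.26 and 5.0, and 5488499 read 4.86, 5.65 and 4.80. With 4781311 these 4 lay below the threshold on every array. Their differences from the gene median ran from -4.52 to -3.58 (adjusted p between 0.00185 and 0.0024, limma).

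Between these ends, 5 further Il7 probesets were not called. Of these, 5166700 and 4709193 lay above the threshold on every array, 4318423 and 5408389 on 2 arrays and 4361681 on 1. Probeset 4318423 had the largest SD of the gene, 0.91, with 8.96, 7.21 and 7.64. Probeset 5408389 ran the other way, with 6.71, 8.21 and 8.17. The median SD of an Il7 probeset over the arrays was 0.43, compared with 0.42 over all named probesets, and r over the 20 probesets was 0.940, 0.955 and 0.984. Spearman's rho was 0.944, 0.923 and 0.979 for the pairs 1-2, 1-3 and 2-3, so the order of its probesets was largely kept. Single values moved, as those of 5408389 did.

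Array 1 was the highest for 15 of 20 Il7 probesets, 9 of 11 called ones among them. Probeset by probeset, array 1 minus array 2 had a median of 0.38 and array 1 minus array 3 a median of 0.70. Over all called probesets the same medians were 0.01 and 0.08. The gene median was 8.93 on array 1 and 8.88 on array 2, where it rested on different middle probesets, 5175078 and 4318423 on the first and 5175078 and 5376603 on the second.

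Spp1, the gene of osteopontin, was the 1 member whose probesets were all highest on the same array. Its median was 10.66, 9.91 and 10.08 in array order, carried by the same probeset, 5415730, on each. All 13 were highest on array 1, including the 2 that were not called. Array 1 exceeded array 2 by 0.36 to 1.39 (median 0.82) and array 3 by 0.12 to 1.44 (median 0.80). Each array is a single sample of the same group, so this difference has no replicate and no test.

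The order of the Spp1 probesets was largely kept between arrays, with Spearman's rho of 0.967, 0.989 and 0.989 for the pairs 1-2, 1-3 and 2-3. Its brightest probeset, 4942344, read 12.34, 11.69 and 11.73, and its dimmest, 4822056, read 6.80, 5.93 and 6.08. Pearson's r was 0.981, 0.978 and 0.980 over the 13 probesets. Between arrays lay 5.99% of the sum of squares, compared with a median of 0.900% over all genes and at most 1.22% in the other 5 members. Once the array means of the gene were removed, the remaining SD was 0.22, below the median of 0.57 over all genes.

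Of the 4 Spp1 probesets called below the gene median, 2 passed the background test. Without array 3 the lower calls fell from 4 to 2 and the higher ones from 3 to 1. The 2 above background were 5483610, with 9.68, 9.18 and 8.75, and 5150267, with 9.45, 8.63 and 8.0, which had the largest SD of the gene, 0.72. Probeset 4657230, with 8.22, 7.47 and 7.82, lay above the threshold on every array but missed the call (adjusted p = 0.0893, limma). The dimmest one lay below the threshold throughout.

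**Figure D2:**
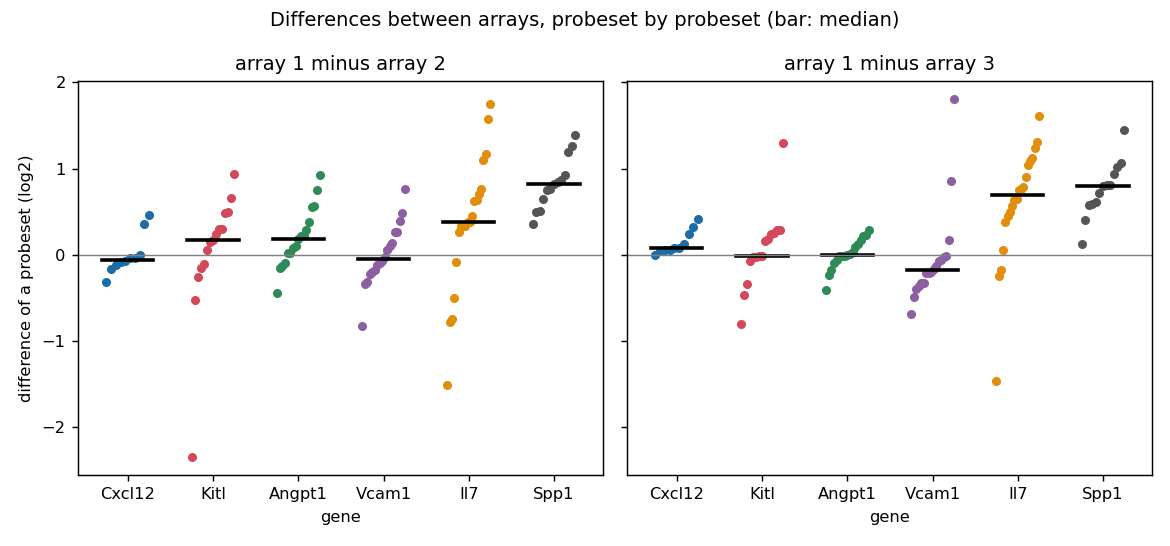
Difference of each probeset between array 1 and array 2 (left) and between array 1 and array 3 (right), on the log2 scale (y axis), by gene (x axis), sorted within a gene, with the median as a bar. All 13 Spp1 probesets lie above 0 in both panels, and Il7 lies mostly above 0, with medians of 0.38 and 0.70.

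Spp1 is made by osteoblasts as well as by other marrow cells, and osteoblast markers were measured beside it. All 8 measured markers of 9 lay above background, beside 50.6% of all genes. Against the genes of hepatocytes, photoreceptors and spermatids 7 of 8 passed, beside 16.2% of all genes. Their median after removal of each array's shift was 0.27, -0.25 and -0.10 in array order, and 4 of 8 were highest on array 1. The collagen gene Col1a1 read 10.10, 8.19 and 8.65 and the bone matrix gene Dmp1 7.40, 6.19 and 6.63, an order shared with Spp1, and both were picked after their values were seen. Others of the list had another order, since Runx2 at 8.75, 8.85 and 8.80 and Phex at 9.69, 9.75 and 8.93 were highest on array 2 and Alpl at 8.14, 7.40 and 8.18 on array 3. Ibsp was level at 12.32, 12.32 and 12.34. The osteoblast factor gene Sp7 at 8.04, 7.49 and 7.52 and the collagen gene Col1a2 at 9.56, 8.83 and 8.97 also had the order of Spp1. Osteoclast markers passed in 1 of 6 cases, the protease gene Ctsk with 8.43, 8.88 and 8.91, and Acp5 at 5.73, 5.73 and 5.75 and Oscar at 5.15, 4.93 and 5.16 did not. Their part in the Spp1 difference was not tested.

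Endothelial cells also make several of these ligands, and their markers were low on array 2. All 7 measured markers of 8 were lowest there, and their median was 8.19, 6.05 and 8.46 in array order. Of the 7, 5 were called, beside 50.6% of all genes. Against the genes of hepatocytes, photoreceptors and spermatids 2 of 7 passed, beside 16.2% of all genes. Cdh5, the gene of VE-cadherin, read 9.14, 6.05 and 9.58, Pecam1 8.92, 6.73 and 8.46 and Emcn 8.50, 6.75 and 9.16. Among the members, the medians of Spp1 at 9.91, Angpt1 at 10.94 and Vcam1 at 10.74 were also lowest on array 2, with 10 of 13, 12 of 17 and 5 of 18 probesets lowest there. More Vcam1 probesets, 10 of 18, were lowest on array 1, where its median was 10.76. For Kitl 7 of 15 probesets were lowest on array 2, and array 1 minus array 2 had a median of 0.17 over them. Cxcl12 had its highest median there, 11.89. The part of endothelial RNA in the members' values was not tested. In bulk samples fewer cells of a type and less RNA per cell cannot be told apart.

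Other blood cells that can make a member were checked by their markers. For megakaryocytes, a known source of angiopoietin-1, 2 of 5 measured markers passed, with Itga2b at 5.60, 5.94 and 5.65 and Pf4 at 4.92, 5.59 and 5.69, both uncalled, and Gp9 at 6.17, 6.45 and 6.15, called. Macrophage markers passed in 2 of 7 cases, with Csf1r at 4.80, 4.53 and 5.31, Adgre1 at 4.33, 4.32 and 4.09 and Cd68 at 5.74, 5.70 and 5.83, all uncalled. The 2 that passed were C1qb with 6.03, 6.56 and 6.74 and Mrc1 with 8.39, 4.44 and 9.15. Mrc1 was lowest on array 2, where the endothelial markers were lowest. Pan-leukocyte markers passed in 1 of 6 cases, and Ptprc, the gene of CD45, read 4.54, 4.37 and 5.14, with Vav1 at 4.22, 4.54 and 4.52 and Coro1a at 5.26, 5.50 and 5.90. B cell markers passed in 0 of 4 (limma, also 0 at an unadjusted p below 0.05), with Cd79a at 4.64, 5.07 and 4.82. All 5 measured neutrophil markers passed, among them S100a8 with 9.55, 9.56 and 10.32 and Mpo with 6.59, 8.28 and 9.69. These counts stand beside 50.6% of all genes. Against the genes of hepatocytes, photoreceptors and spermatids 2 of 5 neutrophil markers passed, including S100a8 but not Mpo. No megakaryocyte, macrophage, pan-leukocyte or B cell marker passed there, beside 16.2% of all genes.

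The receptors and processing enzymes of the 6 ligands were mostly weaker in signal, and 9 of 17 passed at gene level, near the 50.6% of all genes. Only 4 of 17 passed the other-tissue background, beside 16.2% of all genes, and these were Itgb1, Itgav, Itga9 and Adam17. Integrin subunits that bind osteopontin or VCAM-1 led, with Itgb1 at 11.33, 11.25 and 11.34, Itgav at 8.87, 9.30 and 9.01 and Itga9 at 8.19, 8.35 and 8.03. By contrast Itga4, whose product pairs with that of Itgb1 as the main VCAM-1 receptor of blood cells, read 3.73, 3.51 and 3.73 with 0 of 21 probesets called. Itgb3, at 5.42, 4.95 and 5.50, was not called, and Itgb7 passed with 6.28, 6.12 and 6.25 (adjusted p = 0.00946, limma).

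Neither CXCL12 receptor gene passed by its median. Cxcr4 read 5.05, 5.04 and 5.48 and Ackr3, the scavenger receptor, 4.80, 5.16 and 5.33, with 1 of 5 and 0 of 5 probesets called. With the mean over probesets Cxcr4 turned from 0.38 below the threshold to 0.38 above it (adjusted p = 0.0421, limma). Dpp4, a protease that inactivates CXCL12, read 4.04, 3.97 and 4.03 with 0 of 32 probesets called.

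For Kit the median was 5.92, 7.01 and 6.69 (adjusted p = 0.00246, limma), but 2 of its 25 probesets were called. Adam17, a sheddase that acts on many surface proteins, read 8.13, 7.20 and 7.99, and Mmp9, which can release soluble KIT ligand, read 5.02, 6.22 and 5.37 and was not called. The IL-7 receptor chain gene Il7r was at 4.6, 4.79 and 5.44 and uncalled. Its partner Il2rg passed with 6.78, 6.57 and 7.64 (adjusted p = 0.000502, limma), with 0 of 11 single probesets called. Cd44, the osteopontin receptor, read 6.16, 5.71 and 6.04, above the threshold on each array without passing (adjusted p = 0.0790, limma).

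Tek, which encodes TIE2, varied with the endothelial markers. It read 7.68, 5.24 and 7.84, and its call (adjusted p = 0.0225, limma) was lost without array 1 (0.221) and without array 3 (0.0684). Tie1, its orphan relative in endothelium, read 7.05, 6.19 and 6.95 and passed (adjusted p = 0.00179, limma). Angpt1 read 11.11, 10.94 and 11.06 on the same arrays.

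**Figure D3:**
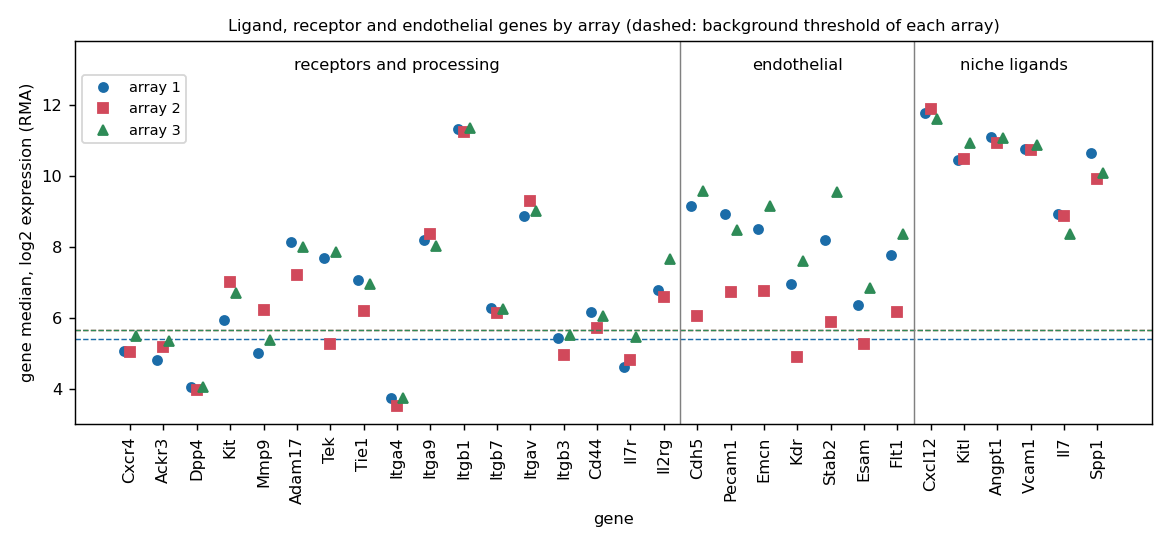
Gene medians (y axis, log2 expression) on arrays 1 to 3 for the 17 receptor and processing genes, 7 endothelial markers and the 6 niche ligands (x axis), with the gene-level background threshold of each array dashed. Tek and the endothelial genes are lowest on array 2, where Tek reads 5.24 and Cdh5 6.05, while the ligands stay at 8.35 or more on every array.

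With the 6 genes pooled, bright probesets were more reproducible than dim ones. The median SD over arrays was 0.19 for the 76 called member probesets and 0.56 for the 17 others. A large SD itself works against a call, so this difference is partly built into the test. It did not hold within Spp1, where the 11 called probesets had a median SD of 0.47 and the 2 others SDs of 0.38 and 0.46. All 10 Cxcl12 probesets were called, so that gene allowed no such comparison. All named probesets with means between 11 and 12 had a median SD of 0.18, and those between 7 and 8 one of 0.44. The 24 member probesets between 11 and 12 had 0.18 and the 8 between 7 and 8 had 0.47. All named probesets with means between 1 and 2 had 0.23, so the relation did not hold at the lowest levels. Set against the median of their own band of 1 log2 unit, 47 of 93 member probesets had a smaller SD, about the share that a median gives.

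The genes differed in that respect. A smaller SD than the median of the band was found for 8 of 10 Cxcl12 probesets, 12 of 17 of Angpt1, 11 of 18 of Vcam1 and 9 of 15 of Kitl, compared with 6 of 20 of Il7 and 1 of 13 of Spp1. Probesets of a gene share the RNA of each array and are no replicates, so these counts are descriptions. For Il7 and Spp1 the SD includes the higher readings on array 1 described above.

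**Figure D4:**
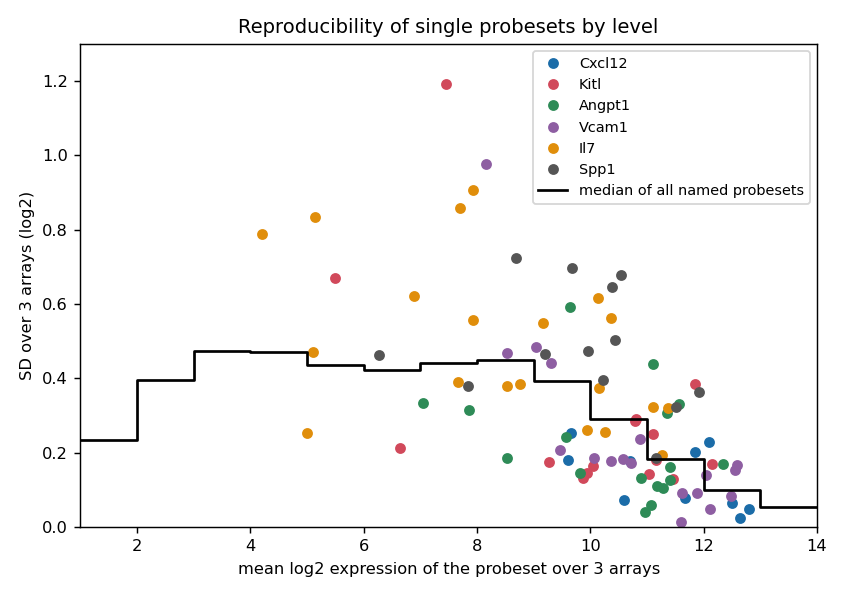
SD over the 3 arrays (y axis, log2) against mean log2 expression (x axis) for the 93 member probesets, coloured by gene, with the median of all named probesets in each band of 1 log2 unit as a black step line. Cxcl12 probesets have SDs of at most 0.25, most Spp1 probesets lie above the line, and the highest point is the Kitl probeset with an SD of 1.19.

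Over the 6 genes 31 probesets were called below and 26 above their gene median, which is 33.3% and 28.0% of 93. Over all probesets tested the shares were 24.9% and 25.5%. Of the 31 lower ones 16 still lay above background. The count of lower probesets was 24, 26 and 18 without array 1, 2 or 3, and the count of higher ones 15, 19 and 11. With the mean as the centre of a gene, 43 were higher and 27 lower.

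Between arrays the gene medians of the members moved no more than those of many genes. After removal of each array's shift over all genes, the range was 0.23 for Cxcl12, 0.53 for Kitl, 0.17 for Angpt1, 0.19 for Vcam1, 0.51 for Il7 and 0.74 for Spp1. The median range of the 9548 called genes was 0.54, and Spp1 alone exceeded it. With the mean over probesets the ranges were 0.09, 0.02, 0.25, 0.10, 0.54 and 0.83 in the same order, and Il7 also exceeded the median of called genes.

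The genes nearest to each member in its 3 deviations from the gene mean were taken from 9542 called genes outside the members. They were 5730435O14Rik, Klc3 and Slc44a2 for Cxcl12, Pnpla7, Wiz and Gtf2i for Kitl, and Tln1, Krt34 and Sugp2 for Angpt1. For Vcam1 they were Anp32e, Gm8061 and Kdm6a, for Il7 Wdr37, Capns1 and Mapk8, and for Spp1 F8a, Ppp6c and Snrpa. The Euclidean distance over the 3 arrays was at most 0.0196 in each case. From 90 genes for Spp1 to 467 for Angpt1 lay within 0.1, so many genes share each pattern of medians. The deviations matched were those of gene medians, and the Kitl rise on array 3 was not shared by its probesets. For Il7, after removal of each array's shift, deviations were 0.18, 0.15 and -0.33 by median and 0.30, -0.05 and -0.24 by mean.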

How the data were processed

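The deposited values are log2 expression of each probeset, for which the submitters' processing notes name Affymetrix Expression Console 1.1 and RMA. The RMA settings and the genome build of the probesets: not given in the sources used here. Per the labels' protocols, RNA of sorted cells was amplified with a whole-transcript kit and labelled with biotin. Probesets were named from the platform annotation, with 4227 symbols updated through RefSeq synonyms. Of the deposited probesets 20744 were at exactly 0 on every array, none of them named. A gene's value was the median of its probesets, with at least 4 required. Intercept-only models were fitted with limma 3.58.1 in R 4.3.3 over all 318760 named probesets (311953 for the test against the gene median) or 18865 genes, with Benjamini-Hochberg adjusted p below 0.05 called. Background genes were called in 9 of 355 cases and background probesets in 89 of 3983. On simulated data the probeset test called 17 of 50 placed 0.5 above the threshold, 30 of 50 placed 1 above, 43 of 50 placed 2 above and 0 of 50 at it. The test against the gene median called 21, 36 and 43 of 50 placed 0.5, 1 and 2 below and 2 of 50 placed at it. For this test departures were drawn directly, without a gene median being taken, so the estimate of the centre was not simulated.

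The members, lists and tests were chosen with earlier results of these data known. Named probesets were the brightest, the dimmest and the most variable of a gene, and those called below its median (at most 5, otherwise the 3 furthest). Others with values were chosen after they were seen: 4962001 and 5091217 of Kitl, 4605915 of Angpt1, 4902444 of Vcam1, 4781311, 5408389, 5166700, 4709193, 4361681, 5175078 and 5376603 of Il7 and 5415730 of Spp1. Of each marker list the first 3 genes were named where measured with at least 4 probesets. Col1a1, Col1a2, Dmp1, Runx2, Phex, Alpl, C1qb and Mrc1 were added after their values were seen.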

Additional observations from a re-analysis of the deposited data

How the results depend on the processing

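All 6 members stayed above background with the mean over probesets, the other-tissue background, the 99th percentile, a minimum of 1 probeset, subtracted array medians and without any 1 array. Called member probesets numbered 76 in the main setting, 65 with the other-tissue background, 51 with the 99th percentile and 73 to 76 without 1 array. With the 99th percentile Il7 kept 4 calls of 20 and Spp1 4 of 13, while all named probesets gave 65442 in the main setting, 26071 with the other-tissue background and 15646 with the 99th percentile. Probesets above their gene median numbered 43 with the mean as the centre and 11 to 19 without 1 array, and those below it 18 to 26 without 1 array. Over all probesets these counts were 79552 and 77792, and 45480 and 45455 without array 3, or 10795 and 8932 among called probesets only. For all genes the count was 9548, 3049 with the other-tissue background and 3797 with the 99th percentile. The median r of the 6 members, taken for each array pair and averaged over the pairs, was 0.974, and 0.957 with called probesets only. For arrays 1 and 2 alone the median was 0.970. Members with a range over arrays above the median of called genes were 2, not 1, with the mean over probesets, and 2 with the array shift kept. Receptors and processing enzymes passed in 4 cases with the other-tissue background, where margins turned to -0.51 for Kit, -0.13 for Tek, -0.32 for Tie1, -0.83 for Itgb7 and -0.053 for Il2rg. With the mean over probesets 11 of 17 passed, beside 10231 of 18865 genes. Cxcr4 turned to 0.38 above the threshold there, and Cd44, 0.35 above it, also passed (adjusted p = 0.0425, limma). The cause of these changes was not tested. Without array 2 the gene-level fit used a common variance for all genes. No paired analysis was possible because all arrays form 1 group. Signal near background limits what can be said of 17 member probesets.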
